A study of Mus musculus with 7 samples.

Results

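The miR-17-92 cluster and its paralog, the miR-106b-25 cluster, were followed in small RNA from extracellular vesicles of mouse fat through their 9 guide arms, the strand of each hairpin that is usually kept. These are mmu-miR-17-5p, mmu-miR-18a-5p, mmu-miR-19a-3p, mmu-miR-20a-5p, mmu-miR-19b-3p and mmu-miR-92a-3p of the first cluster and mmu-miR-106b-5p, mmu-miR-93-5p and mmu-miR-25-3p of the second, written below without the species prefix. They were taken by exact name from the combined count table, where all 9 were found among 1084 entries. Together they had 3219 ± 560 normalised CPM (counts scaled to a common library total; SD, n = 4) on chow and 3251 ± 299.99 (SD, n = 3) on the high-fat diet, a difference smaller than the spread between libraries. No guide arm passed the test for a difference between the diets. miR-25-3p was the most abundant of the 9 in every library, and the profile of miR-92a-3p over the libraries lay farthest from their mean.

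The vesicles, membrane-bound particles shed by cells, came from the adipose tissue of C57BL/6J males kept for 12 weeks on chow (Chow, 4 libraries) or on a high-fat diet (HFD, 3 libraries). No genetic change or other agent is named for either group, and the labels give neither the fat depot nor whether mice were pooled. Because separate animals are not stated, each p-value reflects variation among the 7 libraries, and this may be only technical. Library totals ran from 48840 to 5941955 miRNA counts, and the 2 shallowest, Chow 2 (180694) and Chow 3 (48840), stood apart from the rest. The 9 guide arms together had 123 counts in Chow 3 and 710 in Chow 2, against 4327 to 21204 in the other 5 libraries, so results are also given without these 2. Where a library had no count, the limit is 3 counts, or 66.1 normalised CPM in Chow 3, 14.1 in Chow 2 and at most 1.99 elsewhere, for counting error only. Of 5 miRNAs listed as enriched in fat cells, although none is exclusive to them, all 5 were present, and they held 43.5% to 62.8% of the counts in Chow and 23.3% to 30.5% in HFD, most of it miR-148a-3p.

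A miRNA recognises its targets mainly through its seed, bases 2 to 8 from the 5′ end, and arms with the same seed share many targets. The miR-17-92 cluster is transcribed as a single primary RNA that is cut into separate hairpins, and its transcription is driven by Myc and E2F factors in dividing cells. The miR-106b-25 cluster lies within Mcm7, which encodes a subunit of the helicase that opens DNA for replication, and is made together with it. In fat, miR-17-92 is known from cultured mouse cells to speed the differentiation of fat cell precursors by repressing Rbl2, a retinoblastoma family protein. Several of these arms, miR-92a-3p and miR-25-3p among them, are also plentiful in blood cells.

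The mature sequences show that the 9 arms fall into 4 seed groups, which cut across the clusters. They are given 5′ to 3′ with the seed in capitals, from RefSeq (GRCm38.p6), which held all 9.
The miR-17 seed is carried by 4 of them, cut from both clusters.
miR-17-5p: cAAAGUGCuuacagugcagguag
miR-20a-5p: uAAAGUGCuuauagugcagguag
miR-106b-5p: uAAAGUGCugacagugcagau
miR-93-5p: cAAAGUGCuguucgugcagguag
The miR-18 seed has 1 member.
miR-18a-5p: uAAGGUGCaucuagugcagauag
The miR-19 seed has 2 members.
miR-19a-3p: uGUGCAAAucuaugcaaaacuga
miR-19b-3p: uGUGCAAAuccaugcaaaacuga
The miR-92 seed has 2 members, again from both clusters.
miR-92a-3p: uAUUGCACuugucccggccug
miR-25-3p: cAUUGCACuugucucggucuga

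Some of these sequences are so alike that reads can be shared. Counting positions from 1 at the 5′ end, miR-19a-3p and miR-19b-3p differ only by U11C, and miR-17-5p differs from miR-20a-5p by C1U and C12U. Its paralog miR-106a-5p, from the miR-106a-363 cluster on the X chromosome, differs from miR-17-5p only by U10A. How the counting assigned reads that match more than 1 entry is not given in the sources used here. Splits between such entries are therefore uncertain. If each read was counted once, a sum over the guide arms of a seed does not depend on the split among them. It can still depend on reads shared with entries outside the sum, such as miR-106a-5p. Single counting is not certain, since the miR-486 entries described below had nearly equal counts. A sum would hold a read more than once if the read was counted under more than 1 arm. In RefSeq, miR-19b-3p and miR-92a-3p each have a second locus on the X chromosome with an identical mature sequence, so their counts cannot be assigned to the miR-17-92 cluster alone.

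The 6 hairpins of the miR-17-92 cluster span 836 bases at chr14:115043671-115044506 on the plus strand (GRCm38.p6). In GENCODE M21, on the same build, all of its guide arms overlap an exon of the noncoding host gene Mir17hg. The 3 hairpins of the miR-106b-25 cluster span 498 bases at chr5:138165321-138165818 on the minus strand, and all 3 guide arms lie in introns of the protein-coding transcripts of Mcm7 on its strand. The X-linked miR-106a-363 cluster has its 6 hairpins at chrX:52741693-52742567.

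**Figure D1:**
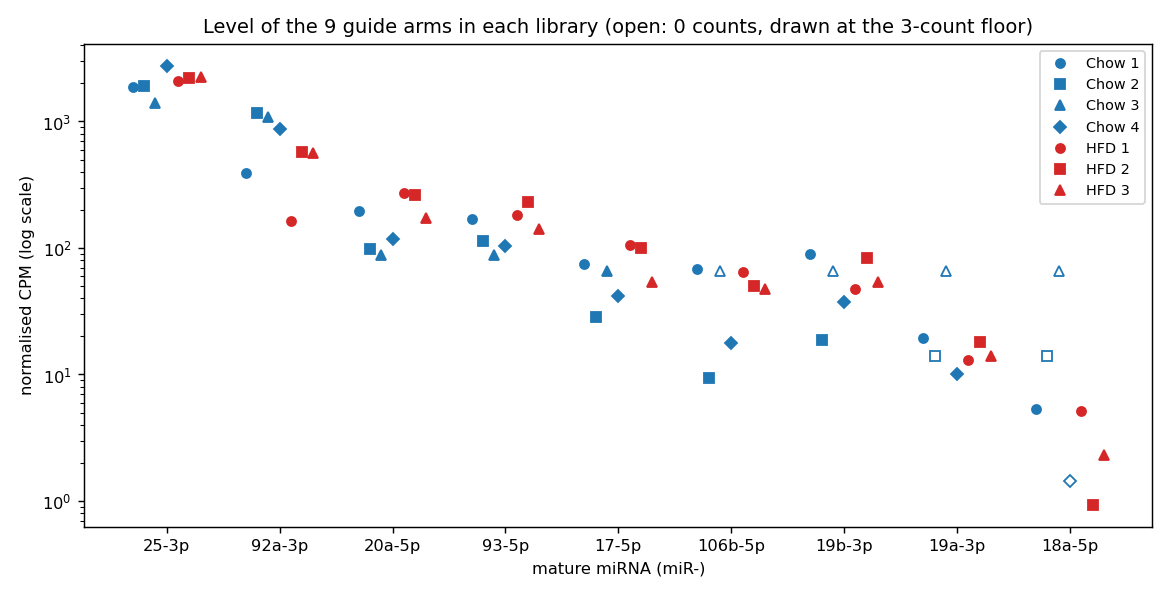
Normalised CPM (vertical axis, log scale) of each of the 9 guide arms (horizontal axis, named without the miR- prefix) in the 4 Chow (blue) and 3 HFD (red) libraries; each point is a library. Open symbols are 0 counts drawn at the level that 3 counts would give. miR-25-3p lies between 1388 and 2749 in all libraries, and the diets overlap for every arm.

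The levels of the guide arms differed by orders of magnitude although they come from only a pair of main transcripts. All are 21 to 23 bases long, so a read covers the whole molecule and levels were compared without scaling for length; differences in how well each sequence is ligated and amplified were not corrected. miR-25-3p ranked first of the 9 in every library. The Chow libraries averaged 1974 ± 567 normalised CPM (SD, n = 4) and the HFD libraries 2177 ± 80.2 (SD, n = 3), and by mean share it was number 37 of all entries. miR-92a-3p came next with 879 ± 349 in Chow and 434 ± 234 in HFD. The ranges of these top arms did not overlap within either diet.

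Below them in Chow came miR-20a-5p at 126 ± 49.0 and miR-93-5p at 119 ± 36.1, whose ranges overlapped. Clear of both ranges came miR-17-5p at 52.6 ± 21.3. It was followed by miR-19b-3p at 36.7 ± 38.9, miR-106b-5p at 23.9 ± 30.5, miR-19a-3p at 7.32 ± 9.25 and miR-18a-5p at 1.33 ± 2.65, each overlapping the next, as miR-17-5p did miR-19b-3p. The order of the means was the same in HFD. There, miR-92a-3p overlapped miR-20a-5p, because HFD 1 had less miR-92a-3p (164) than miR-20a-5p (272). miR-106b-5p, miR-19a-3p and miR-18a-5p were clear of each other in HFD, as were miR-93-5p and miR-17-5p, while the other neighbours below miR-25-3p overlapped.

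The miR-92 seed arms therefore made up most of the summed counts. Together miR-25-3p and miR-92a-3p held 88.2% ± 6.67 (SD, n = 4) of the counts of the 9 arms in Chow, and in HFD 80.2% ± 4.48 (SD, n = 3). The miR-17 seed arms held 10.3% ± 5.02 and 17.4% ± 4.35, and the miR-19 seed arms 1.40% ± 1.69 and 2.32% ± 0.461. Chow 2, Chow 3 and Chow 4 had 91.1% to 91.97% miR-92 seed, whereas Chow 1, with 78.3%, lay within the HFD range of 76.5% to 85.2%. These shares do not depend on how libraries were scaled to each other.

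**Figure D2:**
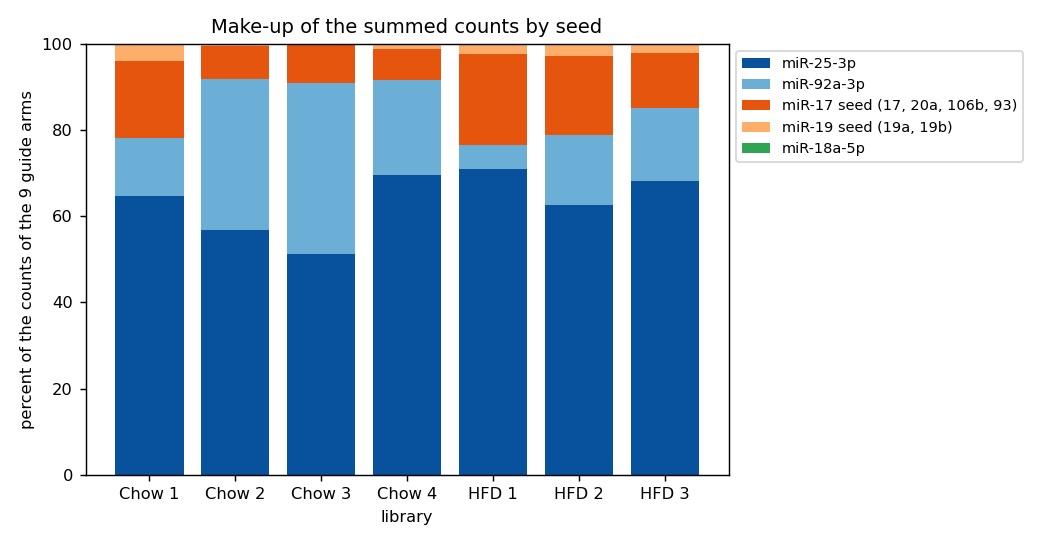
Percent of the summed counts of the 9 guide arms (vertical axis) held by miR-25-3p, miR-92a-3p, the miR-17 seed arms, the miR-19 seed arms and miR-18a-5p in each library (horizontal axis). miR-25-3p holds 51.2% to 70.9% everywhere, and the miR-92a-3p band runs from 5.59% in HFD 1 to 39.8% in Chow 3.

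The design asks which vesicle miRNAs differ between the diets, and the guide arms were read within a test of the whole table. Of the 9, 8 passed the filter on low counts, and miR-18a-5p did not. In edgeR's quasi-likelihood test, 0 of the 8 passed the adjusted threshold of 0.05, where 2.86% of all 385 tested entries did. At an unadjusted p under 0.05, 0 of the 8 passed, against 24.2% of all entries. DESeq2 also called 0 of 8, where it called 11.8% of all entries; at an unadjusted p under 0.05 it had 1 of 8, miR-20a-5p, against 24.6% of all. limma-voom called 0 of 8, where it called 4.16% of all, and had 0 of 8 at an unadjusted p under 0.05, against 23.6%. For 0 of the 8 were the normalised CPM of the diets free of overlap, which held for 22.3% of all entries.

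The fold changes were positive for 7 of the 8, against 49.4% of all tested entries, and their median was 0.52 on the log2 scale, against -0.02 over all entries. With library size as the only scaling, the median of all entries shifted up by 0.33 to 0.31 and that of the guide arms was 0.91. Without Chow 2 and Chow 3, the medians were 0.19 for the guide arms and -0.13 for all entries, and 5 of the 8 fold changes were positive. As a percentage of all counts, the 9 arms together held 0.204%, 0.393%, 0.252% and 0.362% in Chow 1 to Chow 4 and 0.319%, 0.416% and 0.357% in HFD 1 to HFD 3. The exact binomial 95% interval was 0.209% to 0.300% in Chow 3 and 0.352% to 0.362% in HFD 3. The HFD mean was 0.0615 percentage points above the Chow mean, within the spread of the Chow libraries (SD 0.0893). When miR-148a-3p, whose own share of the vesicle counts differed with diet, was left out of the totals, the difference turned to -0.116 points.

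**Figure D3:**
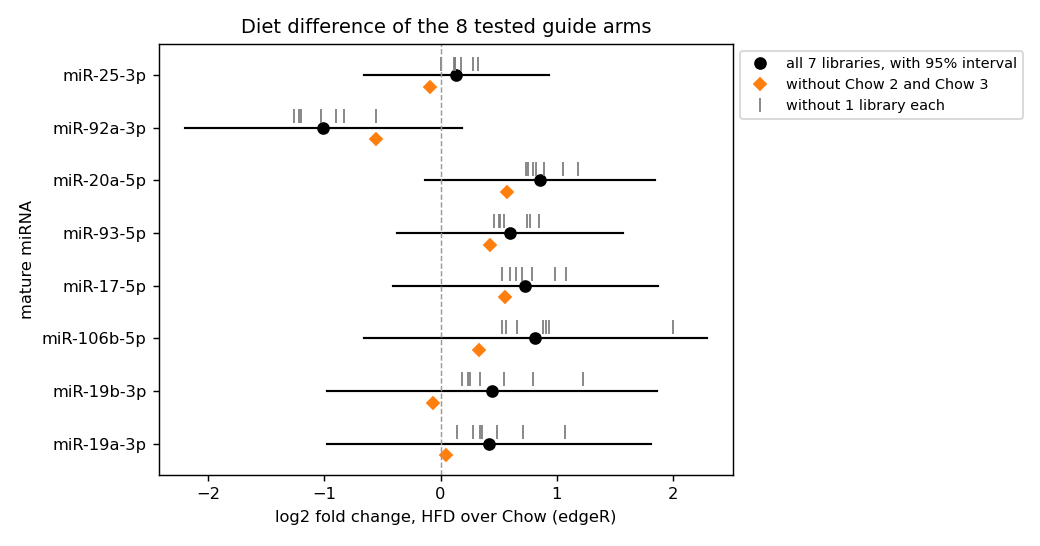
Log2 fold change, HFD over Chow (horizontal axis), of the 8 tested guide arms (vertical axis) in edgeR, with its 95% interval (black), the value without Chow 2 and Chow 3 (orange) and the values without each library in turn (grey ticks). Every 95% interval includes 0, and miR-92a-3p alone has a negative black point, at -1.01. The orange points of miR-19b-3p (-0.07) and miR-25-3p (-0.09) are also negative.

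The miR-17 seed arms repress inhibitors of the cell cycle such as the Cdkn1a protein and also act on TGF-beta signalling. All 4 had positive fold changes that did not pass the test. miR-20a-5p had 296, 21, 4 and 249 counts in Chow 1 to Chow 4 and 583, 566 and 1114 in HFD 1 to HFD 3. In normalised CPM these are 196, 98.7, 88.1 and 119 in Chow and 272, 264 and 172 in HFD. Chow 1 was the only Chow library above an HFD library, and it exceeded HFD 3. In edgeR the diets differed by 0.86 on the log2 scale (95% interval -0.13 to 1.85, SE 0.46, adjusted p = 0.272), which spans 0.912-fold to 3.61-fold. Over all alternative settings it lay between 0.58 and 1.21 with adjusted p-values from 0.111 to 0.563.

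miR-17-5p, made from the same transcript, had 112, 6, 3 and 88 counts in Chow and 225, 213 and 349 in HFD. Its normalised CPM were 74.3, 28.2, 66.1 and 42.0 in Chow and 105, 99.2 and 54.0 in HFD, and the Chow 3 value rests on 3 counts. Chow 1 and Chow 3 lay above HFD 3. The edgeR estimate was 0.73 on the log2 scale (95% interval -0.41 to 1.87, SE 0.52, adjusted p = 0.442).

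From the Mcm7 locus, miR-93-5p had 171, 113, 88.1 and 103 normalised CPM in Chow and 183, 231 and 141 in HFD. Chow 1 again lay above HFD 3. The estimate from edgeR was 0.60 (log2, SE 0.45) with an adjusted p of 0.460. miR-106b-5p, its neighbour in the same introns, had 103, 2, 0 and 37 counts in Chow and 137, 108 and 309 in HFD. Its 68.4 normalised CPM in Chow 1 exceeded all 3 HFD libraries (64.0, 50.3 and 47.8), while Chow 2 and Chow 4 had 9.40 and 17.65 and Chow 3 had none. The edgeR estimate of 0.81 (log2, SE 0.68) had an adjusted p of 0.523. Leaving out Chow 1 moved it to 2.00 with an adjusted p of 0.0586, and leaving out Chow 2 and Chow 3 moved it to 0.33 with an adjusted p of 0.760.

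Summed over the seed, the 4 arms had 509.7, 249, 242 and 281 normalised CPM in Chow and 624, 645 and 415 in HFD. As a share of all counts, before scaling, the Chow libraries lay between 0.0225% and 0.0362% and the HFD libraries between 0.0452% and 0.0758%, without overlap. After scaling, Chow 1 lay above HFD 3 and the diets overlapped. Chow 1 has the lowest scaling factor of the 7 libraries, 0.711, and miR-148a-3p reaches 804669 normalised CPM in it. The overlap thus appeared only with the scaling. Whether the scaled or the unscaled values are nearer the vesicle content was not tested. Lack of overlap before scaling was not counted over all entries.

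By locus rather than seed, the 6 arms of the miR-17-92 cluster averaged 1103 ± 239 normalised CPM in the Chow libraries and 836 ± 218 in the HFD libraries. The 3 arms of the miR-106b-25 cluster averaged 2116 ± 574 and 2416 ± 81.7. Each sum is set largely by its miR-92 seed arm. Without miR-92a-3p the first cluster had 223 ± 112 in Chow and 401 ± 91.6 in HFD, the opposite direction. Without miR-25-3p the second had 142 ± 66.2 and 239 ± 46.9. In both remainders Chow 1 lay above HFD 3, so the diets overlapped, and the sums were not tested.

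The miR-19 seed arms, miR-19a-3p and miR-19b-3p, come from the miR-17-92 cluster and have no counterpart in the miR-106b-25 cluster. miR-19b-3p had 136, 4, 0 and 79 counts in Chow and 101, 178 and 347 in HFD. This is 90.3, 18.8, 0 and 37.7 normalised CPM in Chow and 47.2, 82.9 and 53.7 in HFD, and the highest value of all belonged to Chow 1. The edgeR estimate was 0.45 (log2, SE 0.65) with an adjusted p of 0.763. It moved to 1.22 when Chow 1 was left out and turned to -0.07 when Chow 2 and Chow 3 were. miR-19a-3p had 29, 0, 0 and 21 counts in Chow and 28, 39 and 91 in HFD, and edgeR put the difference at 0.42 (log2, SE 0.64) with an adjusted p of 0.770, or at 0.05 when Chow 2 and Chow 3 were left out. Its 0 counts in Chow 2 and Chow 3 allow up to 14.1 and 66.1 normalised CPM, against 10.02 to 19.2 in the other libraries, so a level like theirs would not have been detectable in Chow 3.

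miR-18a-5p was at the limit of detection. It had 8 counts in Chow 1 and 0 in the other Chow libraries, and 11, 2 and 15 in HFD 1 to HFD 3. Chow 1 at 5.31 and HFD 1 at 5.14 normalised CPM were the highest libraries of their diets. With no filter on low counts, edgeR gave 0.65 (log2) with an adjusted p of 0.671.

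The miR-92 seed arms differed in how even they were between libraries. miR-25-3p had 2800, 404, 63 and 5765 counts in Chow and 4464, 4752 and 14437 in HFD. In normalised CPM these are 1858, 1899, 1388 and 2749 in Chow and 2085, 2213 and 2233 in HFD. The HFD libraries all lay inside the Chow range. The edgeR estimate was 0.14 (log2, SE 0.37, 95% interval -0.66 to 0.93) with an adjusted p of 0.862, so differences between 0.633-fold and 1.91-fold lie within the interval. It turned to -0.09 when Chow 2 and Chow 3 were left out.

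miR-92a-3p, known in mice to restrain blood vessel growth, had 586, 249, 49 and 1843 counts in Chow and 352, 1240 and 3630 in HFD. In normalised CPM these are 389, 1170.4, 1079 and 879 in Chow and 164, 577 and 561 in HFD. Chow 1 lay below HFD 2 and HFD 3, and HFD 1 was the lowest library of all. The edgeR estimate was -1.01 (log2, SE 0.55, 95% interval -2.20 to 0.18) with an adjusted p of 0.284. It was -0.56 when HFD 1 was left out and -0.55 when Chow 2 and Chow 3 were. Over all alternatives it lay between -1.26 and -0.51, negative in each, with adjusted p-values from 0.119 to 0.699.

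Markers of the cell types that could lend miR-92a-3p or other guide arms to the vesicles were read in the same libraries. The erythroid list had 6 of its 7 entries in the table and none at 0 in all libraries, and its summed level was 2555 to 4155 normalised CPM in Chow and 930 to 2672 in HFD. Of this sum, miR-486a-5p, miR-486a-3p and miR-486b-3p had nearly equal counts, 765, 763 and 759 in Chow 1 and 1115, 1133 and 1106 in HFD 3. They may be largely the same reads counted more than once. The sum can then be too high, and these 3 entries cannot be taken as separate measurements. miR-451a, the defining red cell miRNA, had 1501, 1622, 1674 and 1126 normalised CPM in Chow and 1385, 1523 and 392 in HFD. The estimates of the list did not all have the same sign, and none of the 6 passed. On the log2 scale edgeR gave -0.43 for miR-451a and -1.18 to -1.16 for the 3 miR-486 entries. It gave 1.10 for miR-144-3p and 1.78 for miR-144-5p. The HFD libraries of miR-144-5p (30.4, 45.2 and 9.74 normalised CPM) all lay above Chow, where the highest value, 9.40 in Chow 2, rests on 2 counts. Lack of overlap held for 22.3% of all entries. The 0 of Chow 3 allows up to 66.1, above all of these HFD values. The endothelial pair of miR-126a arms summed to 2357 to 5058 in Chow and 973 to 1030.3 in HFD. Most of this sum is miR-126a-3p (mean 3073 in Chow and 939 in HFD), which was lower by the edgeR test (-1.71 on the log2 scale, adjusted p = 0.0491). The other arm, miR-126a-5p, did not pass in edgeR (-0.36 on the log2 scale, adjusted p = 0.808). The leukocyte list, with all 7 entries present, summed to 419 to 1969 in Chow and 2982 to 7409 in HFD, and 4 of its 7 members rose in the test, namely miR-223-3p, miR-142a-3p, miR-142a-5p and miR-342-3p. Stromal and smooth muscle markers summed to 13266 to 24342 in Chow and 5061 to 6562 in HFD, with miR-143-3p lower by the edgeR test. That sum is mostly miR-143-3p (mean 15006 in Chow and 2511 in HFD), and the other 4 members did not pass, with log2 estimates of -1.12 for miR-145a-5p, -0.29 for miR-199a-5p, 0.04 for miR-199a-3p and 0.40 for miR-214-3p. Epithelial (11216 to 26419 and 12693 to 15829), striated muscle (118 to 1575 and 168 to 3756) and testis and epididymis markers (22.03 to 84.3 and 99.7 to 449) had 0 calls in edgeR. The part of these cells in the guide arm levels was not tested, and in bulk vesicle RNA fewer cells of a type and less RNA per cell cannot be told apart.

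Count ratios between guide arms of the same cluster differed in how steady they were. The count ratio of miR-92a-3p to miR-17-5p was 5.23, 41.5, 16.3 and 20.9 in Chow 1 to Chow 4 and 1.56, 5.82 and 10.4 in HFD 1 to HFD 3. Its exact 95% intervals did not overlap between HFD 1 (1.32 to 1.86) and HFD 3 (9.32 to 11.6), nor between Chow 1 (4.27 to 6.46) and Chow 4 (16.9 to 26.2). Libraries of the same diet thus differed beyond counting error. The extra X-linked source of miR-92a-3p is part of this ratio and was not separable.

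The ratio of miR-20a-5p to miR-17-5p was 2.64, 3.50, 1.33 and 2.83 in Chow and 2.59, 2.66 and 3.19 in HFD, and its exact 95% intervals in the 7 libraries all held the values from 2.83 to 3.04. The 1.33 of Chow 3 rests on 4 and 3 counts. Reads may be shared between these near-identical arms, and their part in this ratio was not tested. At the Mcm7 locus, the ratio of miR-25-3p to miR-93-5p was 10.9, 16.8, 15.75 and 26.7 in Chow and 11.4, 9.56 and 15.8 in HFD. The largest ratio exceeded the smallest 26.5-fold for miR-92a-3p to miR-17-5p, 2.79-fold for miR-25-3p to miR-93-5p and 2.63-fold for miR-20a-5p to miR-17-5p. These extremes rest on single libraries. The 26.5-fold includes 249 against 6 counts in Chow 2 and became 13.4-fold without Chow 2 and 7.93-fold without HFD 1, the 2.79-fold became 1.76-fold without Chow 4, and the 2.63-fold became 1.35-fold without Chow 3. No test was made of the ratios between diets.

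**Figure D4:**
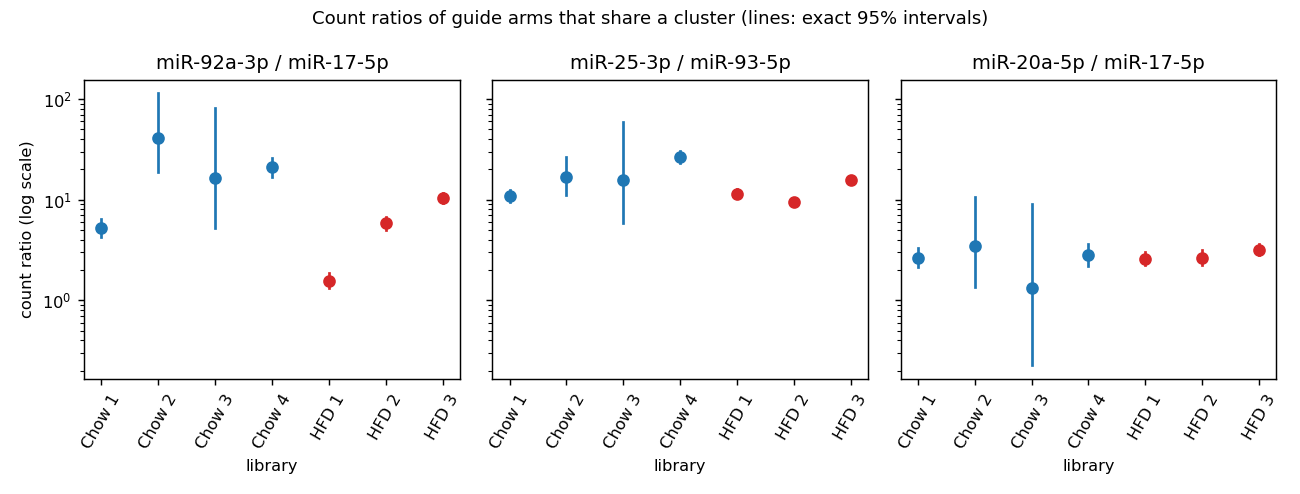
Count ratio (vertical axis, log scale) of miR-92a-3p to miR-17-5p, miR-25-3p to miR-93-5p and miR-20a-5p to miR-17-5p in each Chow (blue) and HFD (red) library, with exact binomial 95% intervals for counting error. The first ratio runs from 1.56 to 41.5, and the last stays between 1.33 and 3.50.

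Pairs of deep libraries of the same diet were also compared arm by arm. Between the deep Chow libraries, Chow 1 and Chow 4, the log2 ratio of normalised CPM was positive for all 4 miR-17 seed arms (0.73 to 1.95) and both miR-19 seed arms (0.94 and 1.26) and negative for miR-25-3p (-0.57) and miR-92a-3p (-1.18). Between HFD 1 and HFD 3 it was positive for the miR-17 seed arms (0.37 to 0.96). It was negative there for miR-92a-3p (-1.77), miR-25-3p (-0.10), miR-19a-3p (-0.11) and miR-19b-3p (-0.19). Between HFD 2 and HFD 3 it was positive for the miR-17 seed arms (0.07 to 0.88), miR-19a-3p (0.37), miR-19b-3p (0.63) and miR-92a-3p (0.04). For miR-25-3p it was -0.01. The miR-19 seed arms thus had the sign of the Chow pair in HFD 2 over HFD 3 and the opposite sign in HFD 1 over HFD 3. The G and C content of the mature sequences also differs between these groups. It is 34.8% for miR-19a-3p, 39.1% for miR-19b-3p and miR-20a-5p, 42.9% for miR-106b-5p, 47.8% for miR-17-5p, 50.0% for miR-25-3p, 52.2% for miR-93-5p and 57.1% for miR-92a-3p. In the order just listed, the log2 ratios of Chow 1 over Chow 4 were 0.94, 1.26, 0.73, 1.95, 0.82, -0.57, 0.73 and -1.18. Those of HFD 1 over HFD 3 were -0.11, -0.19, 0.66, 0.42, 0.96, -0.10, 0.37 and -1.77. Those of HFD 2 over HFD 3 were 0.37, 0.63, 0.61, 0.07, 0.88, -0.01, 0.71 and 0.04. For the other arm miR-106b-3p, at 63.6% G and C, the 3 ratios were -0.74, -0.60 and 0.32. The part of base content was not tested.

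The other arms of the same hairpins were scarce except in Mir106b and, on few counts, Mir18. Of the 9 other arms on a fixed list, 6 were in the table, and 1, miR-106b-3p, passed the low-count filter. Over all libraries the other arm held 1.39% of the counts of both arms of Mir17, 0.819% of Mir93, 0.238% for miR-92a-1-5p beside miR-92a-3p and 0.0673% of Mir25. In Mir106b it held 47.9%, and miR-18a-3p had 20 of the 56 counts of its hairpin. The hairpins of Mir106b and Mir25 are shown because they lie in the same cluster within Mcm7 and gave such different arm use. Their mature arms are in capitals, miR-106b-5p then miR-106b-3p in the first and miR-25-5p then miR-25-3p in the second.
Mir106b, chr5:138165737-138165818, minus strand: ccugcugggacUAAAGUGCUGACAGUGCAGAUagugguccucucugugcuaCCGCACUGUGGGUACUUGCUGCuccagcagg
Mir25, chr5:138165321-138165404, minus strand: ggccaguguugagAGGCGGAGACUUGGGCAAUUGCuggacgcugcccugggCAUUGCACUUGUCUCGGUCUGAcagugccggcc

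The arm use of Mir106b was itself unsteady. miR-106b-3p had 37, 18, 3 and 86 counts in Chow and 66, 126 and 303 in HFD. It held 26.4%, 90.0%, 100% and 69.9% of both arms' counts in Chow 1 to Chow 4 and 32.5%, 53.8% and 49.5% in HFD 1 to HFD 3. The exact 95% intervals of Chow 1 (19.3% to 34.5%) and Chow 4 (61.0% to 77.9%) did not overlap, and those of HFD 1 (26.1% to 39.4%) and HFD 2 (47.2% to 60.4%) did not either. The lowest library of each diet, Chow 1 and HFD 1, was also the lowest for miR-92a-3p over miR-17-5p. With 63.6% G and C, miR-106b-3p is above all 9 guide arms. The Chow libraries averaged 54.1 ± 26.6 normalised CPM and the HFD libraries 45.5 ± 14.0. The edgeR estimate of -0.13 (log2, SE 0.56) had an adjusted p of 0.916 and was opposite in sign to that of miR-106b-5p, and the difference between the arms was not tested.

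**Figure D5:**
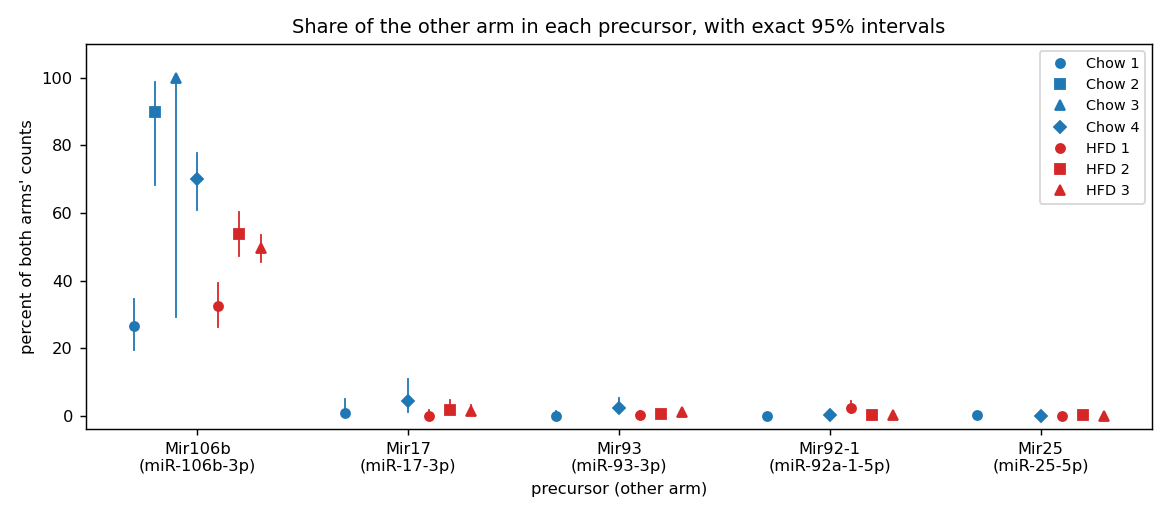
Percent of the counts of both arms (vertical axis) held by the other arm of 5 precursors (horizontal axis), per library, with exact binomial 95% intervals; Chow 2 and Chow 3 are shown for Mir106b only, since their counts are low, and Mir18 is not shown. miR-106b-3p lies between 26.4% and 100%, and the other arm of the remaining precursors at or below 4.35%.

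The X-linked miR-106a-363 paralogs were scarce. Of 10 listed arms, 6 were in the table, with summed levels of 0 to 14.3 normalised CPM in Chow and 8.81 to 20.02 in HFD. miR-106a-5p had 26 counts and miR-20b-5p 32 counts over all 7 libraries, against 996 for miR-17-5p and 2833 for miR-20a-5p. miR-363-3p, which carries the miR-92 seed, was the only paralog arm to pass the filter, with 94 counts in all and an edgeR estimate of 0.53 (log2, SE 0.71, adjusted p = 0.723).

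Other miRNAs with the miR-92 seed added little to it. miR-32-5p, encoded in an intron of Tmem245, and miR-92b-3p were tested.
miR-32-5p: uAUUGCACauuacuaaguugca
miR-92b-3p: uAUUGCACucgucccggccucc
miR-32-5p had 69.0, 28.2, 0 and 76.3 normalised CPM in Chow and 91.5, 99.7 and 83.7 in HFD. All 3 HFD libraries lay above the 4 Chow libraries, though the 0 of Chow 3 allows up to 66.1, and the edgeR estimate of 0.82 (log2, SE 0.60) had an adjusted p of 0.453. For miR-92b-3p the Chow mean was 6.73 ± 8.49 and the HFD mean 14.3 ± 5.06, with an edgeR estimate of 0.44 (log2, SE 0.65, adjusted p = 0.764). Of the 4 entries tested among other arms, X-linked paralogs and other miR-92 seed miRNAs, 0 passed in edgeR, beside 2.86% of all entries, and 1, miR-32-5p, had diets without overlap, beside 22.3% of all entries.

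The profiles of the guide arms over the libraries were compared as the root mean square difference of log2 normalised CPM, each profile centred on its own mean. Over the 5 libraries other than Chow 2 and Chow 3, miR-17-5p and miR-20a-5p were the closest pair at 0.11, followed by miR-20a-5p with miR-93-5p at 0.15 and miR-19a-3p with miR-19b-3p at 0.17. Each of these pairs shares a seed, and miR-20a-5p with miR-93-5p joins both clusters. The other pairs with a shared seed ranged more widely. miR-17-5p with miR-93-5p stood at 0.20, miR-106b-5p with the other miR-17 seed arms at 0.41 to 0.45 and miR-92a-3p with miR-25-3p at 0.71. The closest pair without a shared seed, miR-19a-3p with miR-93-5p, stood at 0.24. A shared seed thus did not by itself go with a close profile, and grouping by seed was not tested. miR-92a-3p with miR-106b-5p was the farthest pair at 1.39. Over all 7 libraries miR-20a-5p and miR-93-5p were the closest at 0.22, and miR-19a-3p with miR-19b-3p stood at 1.18. There miR-92a-3p with miR-106b-5p was again the farthest at 2.77. Several of the values over 7 libraries rest on 0 to 6 counts in Chow 2 and Chow 3.

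Among 134 other miRNAs with at least 5 counts in every library, those nearest to the mean profile of the guide arms over 7 libraries were miR-26b-5p at 0.42, miR-26a-5p at 0.42, miR-340-5p at 0.43, miR-10a-3p at 0.43 and miR-186-5p at 0.45, where the median candidate stood at 0.95. Over the 5 deeper libraries they were miR-140-3p at 0.14, miR-340-5p at 0.19, miR-191-5p at 0.21, miR-23a-3p at 0.22 and miR-29a-3p at 0.24, with a median candidate of 0.56. Only miR-340-5p was in both sets of 5. Its edgeR estimate was 1.07 (log2) with an adjusted p of 0.220.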

How the data were processed

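Per the file headers, the authors deposited raw read counts of mature miRNAs, once per diet and once for the 7 libraries combined. Bowtie is named in the submitters' processing notes. For the counting program, build and annotation, nothing is stated in the sources used here. Of these tables the combined one was tested. It holds 1084 entries, and 485 of these are blank for Chow 2 and Chow 3 in the separate Chow table and 0 in the combined table, none of them a guide arm.

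Counts were tested in R 4.3.3 with edgeR 4.0.16 (TMM scaling, filterByExpr, quasi-likelihood F test, diet as the only term, Benjamini-Hochberg adjustment over all 385 tested entries, threshold 0.05). Standard errors were taken from F, and normalised CPM were scaled by the TMM-adjusted total of filtered counts. Alternatives changed the scaling, the filter, the tool (DESeq2 1.42.0, limma 3.58.1), the libraries and the table, and added the replicate number as a block. Profiles used log2 CPM with a prior count of 2. Intervals of shares and count ratios are exact Clopper-Pearson, at 95%, and cover counting error only, since no molecular identifiers are named for these reads.

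Named were the 9 guide arms, the listed other arms and paralogs, and the 5 nearest profiles. From the marker lists, the entries found of the erythroid, endothelial and stromal lists were named, with the leukocyte entries that passed and miR-148a-3p. Members and lists were chosen with earlier results of these data known. Libraries of a diet differed from each other by at least 43.5 chi-square units per degree of freedom, so all 7 were kept as separate libraries; this does not show separate animals or RNA samples.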

Additional observations from a re-analysis of the deposited data

Results flagged for a closer look

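Among the Chow libraries, Chow 1 had a gap to the other 3 that was large against the range of all 4 in 2 of the 21 sets of Chow values examined, and chance alone flags about 1 set in 20. For miR-18a-5p, Chow 1 had 5.31 normalised CPM on 8 counts while the other 3 libraries had 0 counts. The 0 counts allow up to 14.1 in Chow 2 and 66.1 in Chow 3, above the Chow 1 value. Chow 1 therefore cannot be told apart from Chow 2 or Chow 3. In Chow 4 the limit is 1.43, below the Chow 1 value. For the sum of the miR-17 seed arms, Chow 1 had 509.7 normalised CPM, against 242 to 281 in the other Chow libraries and 415 to 645 in HFD.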

How the results depend on the processing

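No guide arm passed the adjusted threshold under any of the 22 alternatives, 4 of which were added after seeing the data. The fold changes kept their direction except without the 2 shallowest libraries, where miR-19b-3p turned to -0.0652 in edgeR and miR-25-3p to -0.0897 in edgeR, -0.0312 in DESeq2 and -0.0653 in limma-voom. The number of all entries past the threshold was 11. It was 18 with RLE scaling, 39 with library size only, 49 in DESeq2 and 62 with no filter, and between 0 and 32 with a library left out (0 without HFD 2, 32 without Chow 1). When HFD 2 was left out, 57 entries had an unadjusted p under 0.05 in edgeR, and DESeq2 called 16 and limma-voom 0 (57 unadjusted). Without the 2 shallowest libraries edgeR called 0 (95 at an unadjusted p under 0.05), DESeq2 36 and limma-voom 1. With the replicate number as a block the count was 23. Deviations of same-numbered libraries correlated at 0.07, -0.16 and 0.04, and not every library correlated best with its own number. With so few libraries per diet, these correlations cannot decide whether the numbers pair the libraries. The summed share differed by -0.116 points without miR-148a-3p in the totals. The causes were not tested. Depth limits the guide arms most in Chow 3, where 5 of 9 had 3 counts or fewer.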
